A study of Mus musculus with 2 samples.

Results

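The Hippo pathway and its nuclear partners were examined in Neuro2a cells, a mouse neuroblastoma line, through 10 genes: the coactivators Yap1 and Wwtr1 (which encodes TAZ), the TEAD factors Tead1 to Tead4, the kinases Lats1 and Lats2, the angiomotin gene Amotl2, and Srf, the serum response factor. Members were taken as every probe set assigned to exactly 1 of these gene symbols, whatever its signal. All 10 genes were found, with 22 of the 34945 probe sets that carry 1 symbol and among 18193 genes in all. Of the 22 member probe sets, 11 were bright enough for a ratio, and they measured 6 of the 10 genes.

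Cells of the same line had received an siRNA directed at Tmem132a or, as the control, a non-specific one. Tmem132a encodes a single-pass membrane protein. Total RNA of each sample was hybridised to 1 Affymetrix mouse array. No further genotype, dose or time is given in the sources used here, and the sequence of neither siRNA is. With 1 array per group there is no replicate error, so every difference below compares 2 arrays, has no test and is described by its size alone. A ratio is the log2 of the signal with the Tmem132a siRNA over that with the control siRNA, so that 1 is a 2-fold higher and -1 a 2-fold lower signal. The mean of a gene is taken over its probe sets past the signal filter, which asks for a mean signal of at least 77.25 over both arrays, the median of all probe sets. Signals are fluorescence of different probes, so their heights are compared between the arrays and not between genes.

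As background, Hippo signalling is a kinase cascade that limits growth and responds to cell contact and to tension of the actin cytoskeleton. Its last kinases, LATS1 and LATS2, phosphorylate YAP and TAZ, which are then held in the cytoplasm or degraded. Unphosphorylated YAP and TAZ enter the nucleus and act through TEAD factors, which bind DNA. SRF binds the CArG box and is driven by cofactors of the MRTF family, which sense free actin monomers, or by ternary complex factors (TCF), which are targets of the ERK kinase. Much of this control is by phosphorylation and location of proteins, which an array of transcripts does not measure.

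DNA elements of both factors were looked for close to the start sites of the genes described here. The CArG box (CC, 6 bases that are each A or T, then GG, which reads the same on both strands) was searched in RefSeq promoters of build GRCm38.p6, each 300 bases long, from 250 before to 50 after a start. It occurred in 488 of 27025 genes (1.81%). Of the members 8 had a promoter in that table, and Srf alone among these 8 held a CArG box. The 150 bases before its start (minus strand, chr17:46556163-46556312) hold a pair of them, shown in capitals and beginning 82 and 62 bases before the start.
Srf: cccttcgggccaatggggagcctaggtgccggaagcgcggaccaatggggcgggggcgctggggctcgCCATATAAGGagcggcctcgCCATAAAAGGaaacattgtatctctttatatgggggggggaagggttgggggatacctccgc

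Among cytoskeletal genes known as targets of MRTF and SRF, 8 of the 21 with a promoter in the table held a CArG box (38.1%). The 5 below are shown because they had quite different ratios between these arrays, from far lower to higher. Each is the match in capitals with 10 bases on either side, 5′ to 3′, for Myl9 (plus strand, chr2:156775293-156775322), Cnn2 (plus, chr10:79988534-79988563), Acta1 (minus, chr8:123894829-123894858), Vcl (plus, chr14:20929161-20929190) and Actc1 (minus, chr2:114052903-114052932).
Myl9: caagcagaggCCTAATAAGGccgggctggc
Cnn2: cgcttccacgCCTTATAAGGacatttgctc
Acta1: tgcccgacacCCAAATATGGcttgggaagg
Vcl: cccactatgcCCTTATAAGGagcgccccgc
Actc1: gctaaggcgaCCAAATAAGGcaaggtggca

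The TEAD motif GGAATG, or its reverse complement CATTCC, is short and common: 4481 of 27025 genes (16.6%) held it in the same window. It occurred in 5 of the 8 members with a promoter, namely Yap1, Wwtr1, Tead3, Lats2 and Amotl2, and it overlaps no CArG box in the sequences shown. The matches of Amotl2, which is a known YAP target (plus strand, chr9:102717729-102717754), and of the classical target Ccn1 (minus strand, chr3:145650073-145650098) are shown, with the motif in capitals. A match describes letters in a window and does not show that a factor binds there.
Amotl2: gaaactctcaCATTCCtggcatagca
Ccn1: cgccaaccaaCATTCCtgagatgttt

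The labels were set against the targeted gene and cell type markers. Tmem132a itself went from 1825.5 on the control array to 435.6 on the array of its own siRNA, 23.9% of the control level, although the free-text description of the latter sample repeats the control's wording. Sympathetic neuroblast markers were measured for 12 of the 14 genes with a probe set, among them Phox2a, Hand2, Gata2 and Stmn2, whereas the neurofilament genes Nefl and Nefm did not pass the filter. Of the 10 fibroblast markers 0 passed, and 1 of 7 epithelial and endothelial and 1 of 6 immune markers with a probe set did. The ratio of 3′ to 5′ signal of the beta-actin control probe sets was 1.52 for the control and 1.69 for the Tmem132a siRNA, and that of Gapdh was 0.953 and 0.994.

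The 6 measured members differed little between the arrays. None was 2-fold higher or 2-fold lower, against 2.1% and 2.44% of all 10678 measured genes, so the members' count of 0 is near the background. At the smaller size of 1.5-fold, 0 members were higher and 1, Amotl2, was lower, where 8.82% of all genes were higher and 9.11% lower. The median ratio of the members was -0.06 and that of all genes 0.02, with 3 members above 0 and 3 below. Across probe sets in place of genes, 1 of 11 was at least 2-fold lower, a probe set of Srf, against 2.88% of 19316, and 1 of 11 was at least 1.5-fold higher, a probe set of Wwtr1, against 10% of them. All 11 had signals above 77.25 on both arrays, so none passed the filter through 1 array alone.

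**Figure D1:**
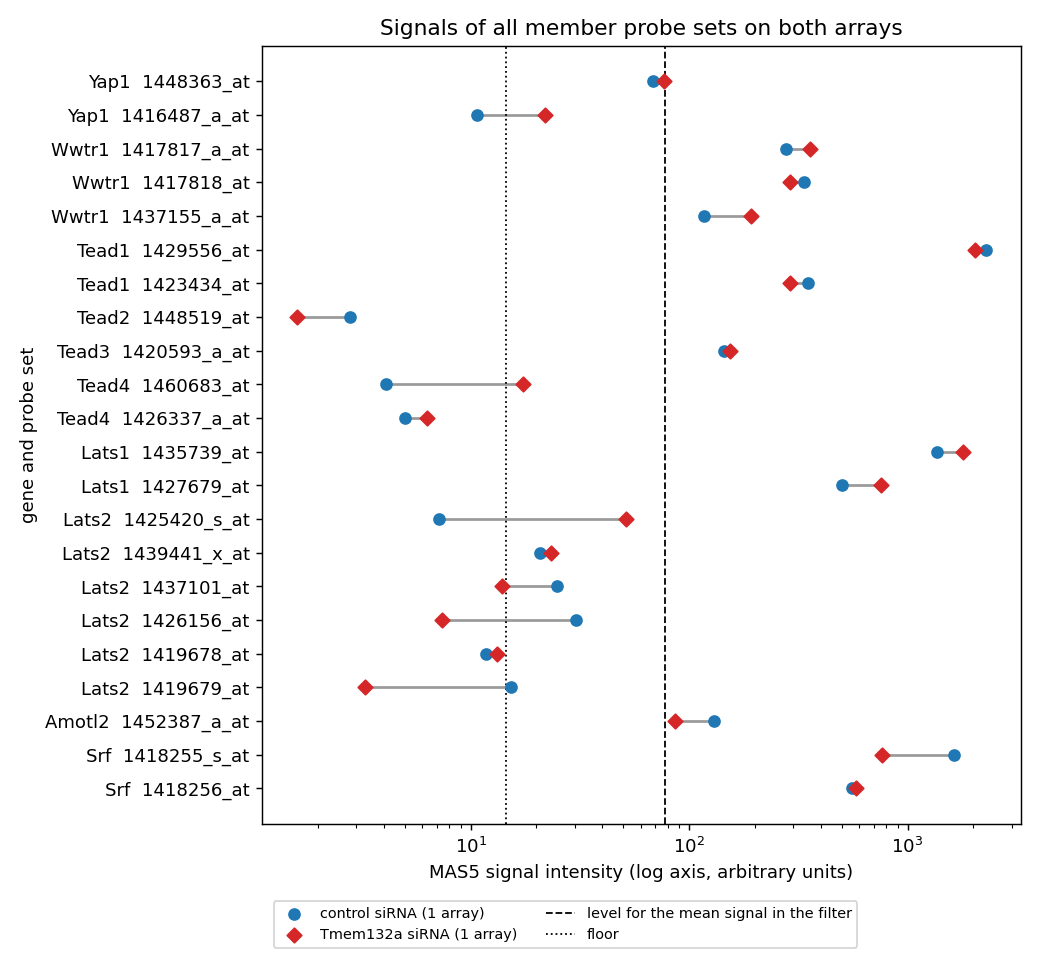
MAS5 signal intensity (log axis) of all 22 member probe sets, 1 row each, on the control siRNA array (circles) and the Tmem132a siRNA array (diamonds), 1 array per group, with the filter level of 77.25 and the floor of 14.5 as vertical lines. The probe sets of Yap1, Tead2, Tead4 and Lats2 lie left of the filter line on both arrays, and 1418255_s_at of Srf has the widest gap among those to its right, from 1623.7 to 761.5.

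Of the coactivators, Wwtr1 was measured and Yap1 was not. TAZ, the protein of Wwtr1, and YAP are paralogues that share TEAD partners. The brightest of 3 Wwtr1 probe sets, 1417817_a_at, had signals of 276.4 for the control and 358.8 for the Tmem132a siRNA. The nearly as bright 1417818_at, designed like it on sequence BC014727, had 335 and 290. Thus the pair pointed in opposite directions, with ratios of 0.38 and -0.21. The dimmest, 1437155_a_at, had 117.7 and 191.4, a ratio of 0.70. The gene mean of 0.29 ± 0.46 (SD, n = 3 probe sets) is smaller than the spread between its probe sets, which were read from the same RNA samples. Whether they report different parts of the transcript was not tested.

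Yap1 stayed just under the filter. Its brighter probe set, 1448363_at, read 68.7 and 76.6 on the control and Tmem132a siRNA arrays, while 1416487_a_at had 10.7 and 22. Both were higher with the Tmem132a siRNA, but at this brightness that says little: of 15629 probe sets with 1 symbol under the filter, 39.2% were higher by 1.5-fold or more in the deposited signals and 28.9% were lower by as much. With no filter the Yap1 ratio was 0.38, where the dimmer probe set entered at the floor of 14.5 on the control array.

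TEAD factors are the DNA-binding partners of YAP and TAZ, and 2 of the 4 genes were measured. Tead1 had signals of 2286.7 and 2046.1 at its brighter probe set 1429556_at, and of 349.1 and 289.3 at 1423434_at. Both were slightly lower with the Tmem132a siRNA, by ratios of -0.16 and -0.27, with a gene mean of -0.22 ± 0.08 (SD, n = 2 probe sets). Among probe sets in the same signal ranges, 29.1% (above 2000) and 28.7% (150 to 500) had ratios at least as low. Tead3 had 144.3 and 154.3 at its only probe set, 1420593_a_at, a ratio of 0.10.

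Tead2 and Tead4 gave no usable signal. The single Tead2 probe set, 1448519_at, had 2.8 and 1.6, and both values lay under the floor. For Tead4, 1460683_at had 4.1 and 17.4 and 1426337_a_at had 5 and 6.3. The former pair would be a large ratio on its face, yet only the second of its values exceeded the floor. Neither gene therefore has a direction on these arrays.

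The LATS kinases differed in the same way, in that Lats1 was measured and Lats2 was not. Both Lats1 probe sets were higher with the Tmem132a siRNA: 1435739_at went from 1357 to 1790.4 and 1427679_at from 502.9 to 753.1. Their ratios of 0.40 and 0.58 gave a gene mean of 0.49 ± 0.13 (SD, n = 2 probe sets), a 1.41-fold higher signal and the highest ratio of any measured member. In the signal range from 500 to 2000, 16.1% of 6352 probe sets had a ratio as high as the former and 7.01% one as high as the latter. Lats1 was above 0 in all 10 alternative settings, from 0.40 to 0.50, and reached 1.5-fold in 0 of them. Several of these settings leave its 2 bright probe sets as they are, so they are not separate checks of the direction.

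Lats2, which is also a YAP target, had 6 probe sets and all were dim, with signals between 7.2 and 30.4 on the control array and between 3.3 and 51.7 on the Tmem132a siRNA array. Of the 6, 3 were higher and 3 lower. The widest differences lay in opposite directions: 1425420_s_at went from 7.2 to 51.7, and 1426156_at from 30.4 to 7.4. One more probe set, 1421055_at, is assigned to both Xpo4 and Lats2 and was therefore not a member. It had signals of 1177.4 and 1423.5, which cannot be given to either gene.

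Amotl2 encodes an angiomotin-like junction protein that binds YAP and whose own gene is a YAP target, a feedback arm of the pathway. Its only probe set, 1452387_a_at, read 130.3 on the control array and 86.3 on the Tmem132a siRNA array, a 1.51-fold lower signal and a ratio of -0.59. Signals of this brightness vary widely: of 3421 probe sets whose mean lay from 77.25 up to 150, 15.8% were at or under the ratio of Amotl2, and 16% were at least 1.5-fold lower. With 79.2 added to every signal and no floor its ratio was -0.34, under 1.5-fold, and with the stricter filter or without probe sets of the a type it had no value.

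Srf had the widest disagreement among the members. Its brighter probe set, 1418255_s_at, read 1623.7 on the control array and 761.5 on the Tmem132a siRNA array, or 46.9% of the control level and a ratio of -1.09. The other, 1418256_at, had 557.8 and 578, a ratio of 0.05. Thus one reported a 2.13-fold lower signal and the other almost the same signal, although both were designed on the same sequence, BI662291. In the range from 500 to 2000, 1.16% of 6352 probe sets had a ratio as low as the former, and 53% one as low as the latter.

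The gene mean of Srf, -0.52 ± 0.81 (SD, n = 2 probe sets), is therefore smaller than its spread. Over 5072 genes with several probe sets past the filter, the median distance from the lowest to the highest was 0.42, and 414 genes (8.16%) were as far apart as the 1.14 of Srf. By its brightest probe set Srf was 2-fold lower (-1.09), and without probe sets of the x, s and a types, which can share sequence with other transcripts, its ratio was 0.05. Which of them reports the Srf transcript was not tested.

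**Figure D2:**
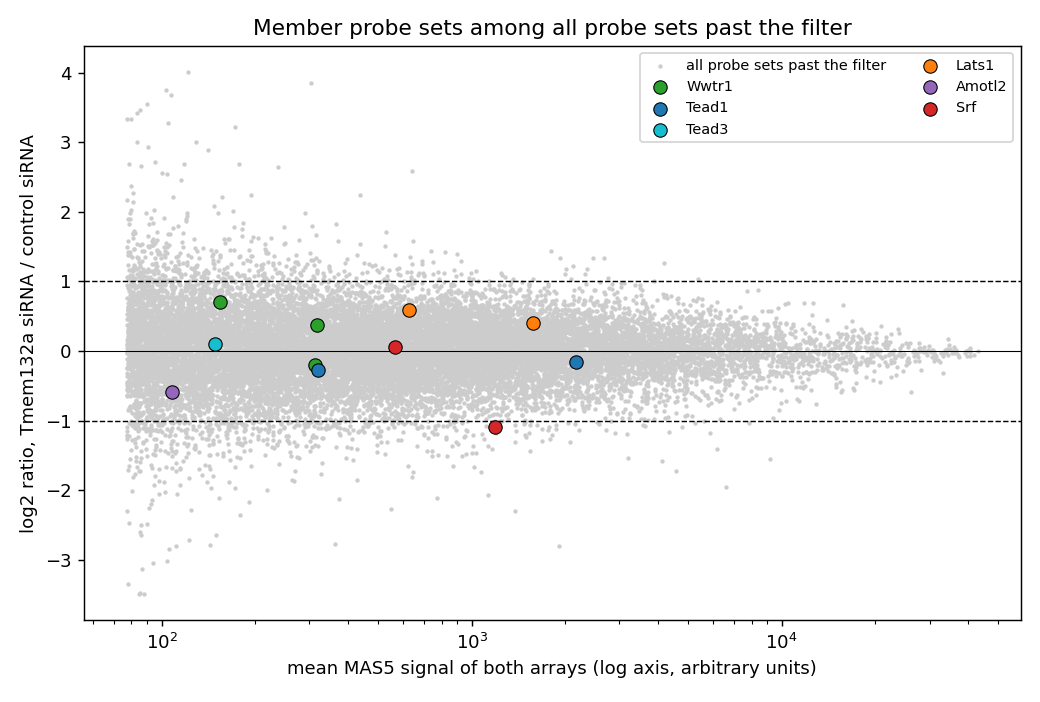
Log2 ratio of the Tmem132a siRNA over the control siRNA array against the mean signal of both arrays (log axis). All 19316 probe sets past the filter that carry 1 symbol are in grey, the 11 member probe sets in colour, and dashed lines mark 2-fold. The grey cloud narrows as the signal grows, and 1 probe set of Srf, at -1.09, is the sole coloured point below the lower dashed line, while the other Srf probe set lies at 0.05.

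Upstream of LATS, 23 of 27 listed genes were measured, and their median ratio of -0.05 lay near that of all genes. Of the 23, 11 were above 0 and 12 below, 0 reached 2-fold higher (2.1% of all genes did) and 1 reached 2-fold lower (2.44%). That gene was Fat1, an atypical protocadherin, with 1516.9 and 715.7 and a ratio of -1.08. Its relative Dchs1, a ligand of the related receptor Fat4, had 287.6 and 156.9 (-0.87), and the polarity gene Llgl1 had 2013.9 and 1122.9 (-0.84), while Fat4 was too dim. These 3, the largest of the list in size, were all lower with the Tmem132a siRNA and each rests on 1 probe set. In the core kinase cascade, Stk4, which encodes the kinase MST1, had -0.05, its scaffold Sav1 0.30 and the LATS activators Mob1a and Mob1b -0.23 and 0.33, genes chosen here for their role after their values were seen. The probe sets of Mob1b disagreed, at -0.12 and 0.78, and by the brighter, with 921.2 and 1579.7, or with the stricter filter its ratio was 0.78.

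Cofactors and inhibitors that act on YAP, TAZ or TEAD were measured for 12 of 16 genes, with a median of -0.07. Of these 12, 5 were above 0 and 7 below, and 1 was 2-fold lower with 0 higher by that size, against 2.44% and 2.1% of all genes. Wtip, an Ajuba-type LIM protein of the family that restrains LATS, had 392.6 and 152.3, a ratio of -1.37. Ywhah, which encodes a phosphoserine-binding adaptor of the kind that holds YAP in the cytoplasm, had 4477.4 and 2864.1 (-0.64). Vgll4, a competitor of YAP for TEAD, had 178.7 and 137.6 (-0.38), and Vgll1, Vgll2, Vgll3 and Ajuba were too dim.

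The classical readouts of YAP and TAZ were too dim to be measured on either array. Ccn1 and Ccn2, matricellular proteins, and Ankrd1, a cardiac ankyrin repeat protein, had 4, 1 and 2 probe sets, and 0 of them passed the filter. Ccn2 had 4.3 for the control and 9.6 for the Tmem132a siRNA, under the floor on both. The brightest Ankrd1 probe set had 31.6 and 56.3, and those of Ccn1 differed both ways, with 67.9 and 27.5 at 1438133_a_at but 42.2 and 65.2 at 1416039_x_at.

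Of the 22 listed YAP, TAZ and TEAD targets 12 were measured, with a median ratio of -0.08. Of these, 5 were above 0 and 7 below, 1 reached 2-fold higher (2.1% of all genes did) and 0 reached 2-fold lower (2.44%). Crim1, a transmembrane BMP regulator, had 115.2 and 317.6 (1.46), and F3, tissue factor, 108 and 214.9 (0.99). Birc5, the survivin gene, had 4803.9 and 3092.7 (-0.64). Dim genes weighed on these values: with the stricter filter at a signal of 462.8, 4 targets were left, all 4 below 0, with a median of -0.56, and with no filter the ratio of Crim1 was 0.59.

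SRF cofactors showed no common direction. Of 9 listed genes 7 were measured, 3 above 0 and 4 below, with a median of -0.13. At 2-fold, 0 were higher and 0 lower, against 2.1% and 2.44% of all genes. By the brightest probe set 1 of 7, Elk1 (-1.21), was 2-fold lower, against 2.98% of all genes. Without x, s and a probe sets 1 of 7, Elk4 (1.25), was 2-fold higher, against 2.17%. The median was 0.10 with the stricter filter and 0.12 with no filter, so its sign is not settled. Elk4, a ternary complex factor, averaged 0.72 from probe sets at 0.19 and 1.25, and by the brightest, with 485.6 and 552.7, it was 0.19. Elk1, of the same family, had -0.69 over probe sets at -1.21 and -0.17. The former, with 154.1 and 66.5, passed the filter through the control array alone. The cardiac factor Nkx2-5 had 988.1 and 760 (-0.38). The genes of the actin-sensing cofactors, Mrtfa and Mrtfb, had ratios of 0.32 (845 and 1055.7) and -0.13 (1108.2 and 1011.7), named here for their role after their values were seen, and with all probe sets kept that of Mrtfb was 0.12, while the muscle cofactor Myocd was too dim.

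Cytoskeletal targets of MRTF and SRF were lower on the Tmem132a siRNA array in much of the list. Of 24 genes 20 were measured, 16 below 0 and 4 above, with a median of -0.39 against 0.02 over all genes. A total of 8 of the 20 (40%) were at least 2-fold lower, and 0 were higher by that size, against 2.44% and 2.1% of all genes. The list was compiled with Myl9, Acta2 and Tnnt2 already known to be lower here, so its count is not independent evidence of a direction.

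The 8 lower genes encode parts of contractile and actin-linked structures. Myl9, a regulatory myosin light chain, had 3346 for the control and 478.9 for the Tmem132a siRNA (-2.80), and Cnn2, a calponin that binds actin, had 9001.9 and 3386.6 (-1.41). Tnnt2, cardiac troponin T, had 1320 and 417.6 at its brighter probe set, with a gene ratio of -1.70 ± 0.06 (SD, n = 2 probe sets). The muscle actin genes Acta2, Actg2 and Acta1 had 10520.2 and 2712.7 (-1.96), 1104.4 and 386.2 (-1.52), and 358.4 and 154.3 (-1.22). These actin values each rest on 1 probe set, of the s type for Acta2 and of the a type for Actg2 and Acta1. Whether related actins share these probes was not tested. The remaining genes of the 8 were Flna, which encodes the actin crosslinker filamin A, with 8141 and 3601.4 (-1.18), and Tpm2, a tropomyosin, with -1.06 ± 0.18 (SD, n = 4 probe sets), both named after their values were seen. With all probe sets kept, dim ones of Acta2 and Tnnt2 entered and their ratios were -0.39 and -1.04. With 79.2 added to every signal, Acta1 (-0.91) and Tpm2 (-0.94) were under 2-fold, which left 6 of the 20 genes 2-fold lower, against 0.74% of all genes in that setting.

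By their gene means, the other measured targets of MRTF and SRF on the list stayed within 1.5-fold, although single probe sets went further. Zyx, counted among the 4 genes above 0, had probe sets at 0.96 and -0.40, the latter the brighter. Single probe sets were also more than 1.5-fold lower for Tpm1 (-0.68), Cald1 (-0.62 and -0.59) and Cfl1 (-0.61). Vcl, vinculin, had 9318.7 and 7522.4 at its brighter probe set, with a gene ratio of -0.28 ± 0.04 (SD, n = 2 probe sets). The non-muscle actin genes Actb and Actg1 had 0.01 and -0.07, and Actc1 had 166 and 235.4 (0.50), values given to show the other end of the list. Tagln, the smooth muscle marker SM22, had 39.1 and 6.1 and was too dim. The genes with a CArG box shown above ran from -2.80 for Myl9 to 0.50 for Actc1. They were picked for their different ratios, so this range says nothing about genes with the box in general. Actg1 (-0.07) and Filip1l (0.44) also held a CArG box, as did Fhl1, which was too dim. Of the 2-fold lower genes with a promoter searched, Myl9, Cnn2 and Acta1 held one and Acta2, Tnnt2, Flna and Tpm2 did not. Without probe sets of the x, s and a types, 13 genes of the list were measured. Of these, 3 (23.1%) were 2-fold lower, Myl9, Cnn2 and Flna, against 2.71% of all genes in that setting.

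Immediate early targets of SRF and its ternary complex factors had gene ratios above 0, most of them small. Of 12 genes 10 were measured, all 10 above 0, with a median of 0.31. Of all 10678 measured genes, 5531 were above 0, and their median was 0.02. Only 1 of the 10 reached 2-fold higher (2.1% of all genes did) and 0 reached 2-fold lower (2.44%). Egr1, a zinc finger factor induced within minutes of stimulation, had 2449.7 and 5918.4 (1.27). Arc, a synaptic plasticity gene, had 194.8 and 284 (0.54), and Fos had 970.7 and 1235.8 (0.35). The values of Egr2 and Egr3 cannot count towards a direction, since 1 of the former's 2 probe sets (55.8 and 101.2) and both of the latter's (59 and 116.6, 76.9 and 80.9) passed the filter through the Tmem132a siRNA array alone, where they were higher. The other Egr2 probe set had 135.3 and 109.6, a ratio of -0.30. When genes were read by their brightest probe set alone, and likewise without probe sets of the x, s and a types, 1 gene was below 0. The 8 genes other than Egr2 and Egr3 had all their signals above the filter on both arrays. The list was made with the higher signals of several of these genes already known.

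**Figure D3:**
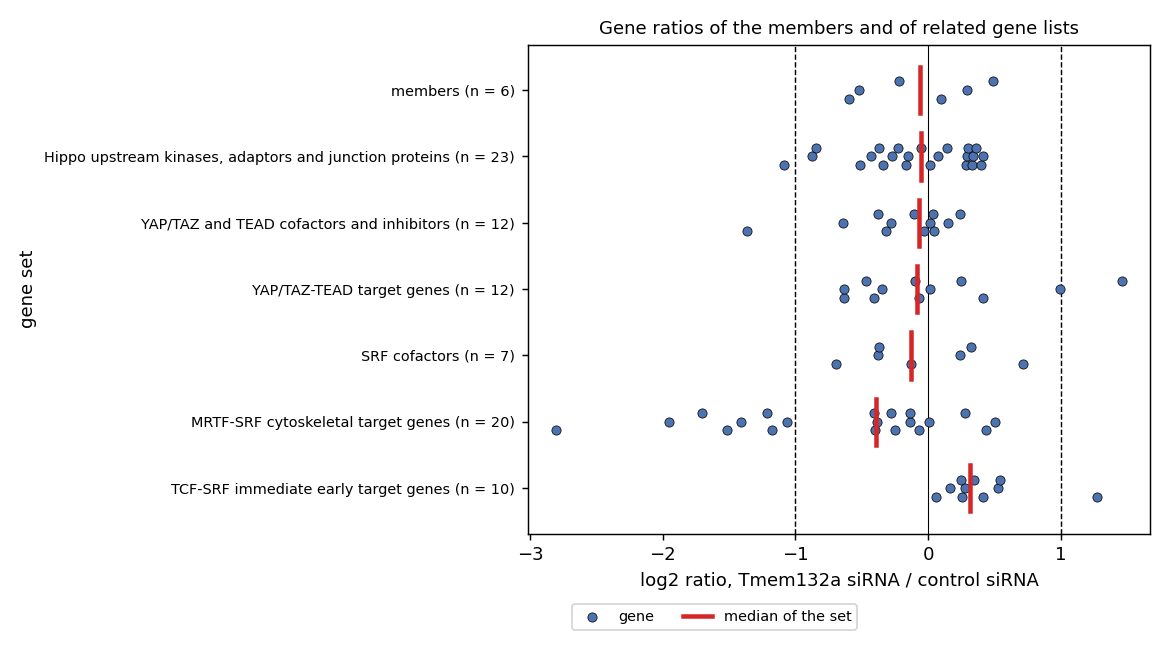
Log2 ratio of the Tmem132a siRNA over the control siRNA array for each measured gene (points) of the members and of 6 related lists, with the median of each set as a red bar and dashed lines at 2-fold. The members lie between -0.59 and 0.49, the medians of the upstream genes, cofactors and YAP targets lie between -0.13 and -0.05, and the cytoskeletal and immediate early SRF targets have medians of -0.39 and 0.31.

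**Figure D4:**
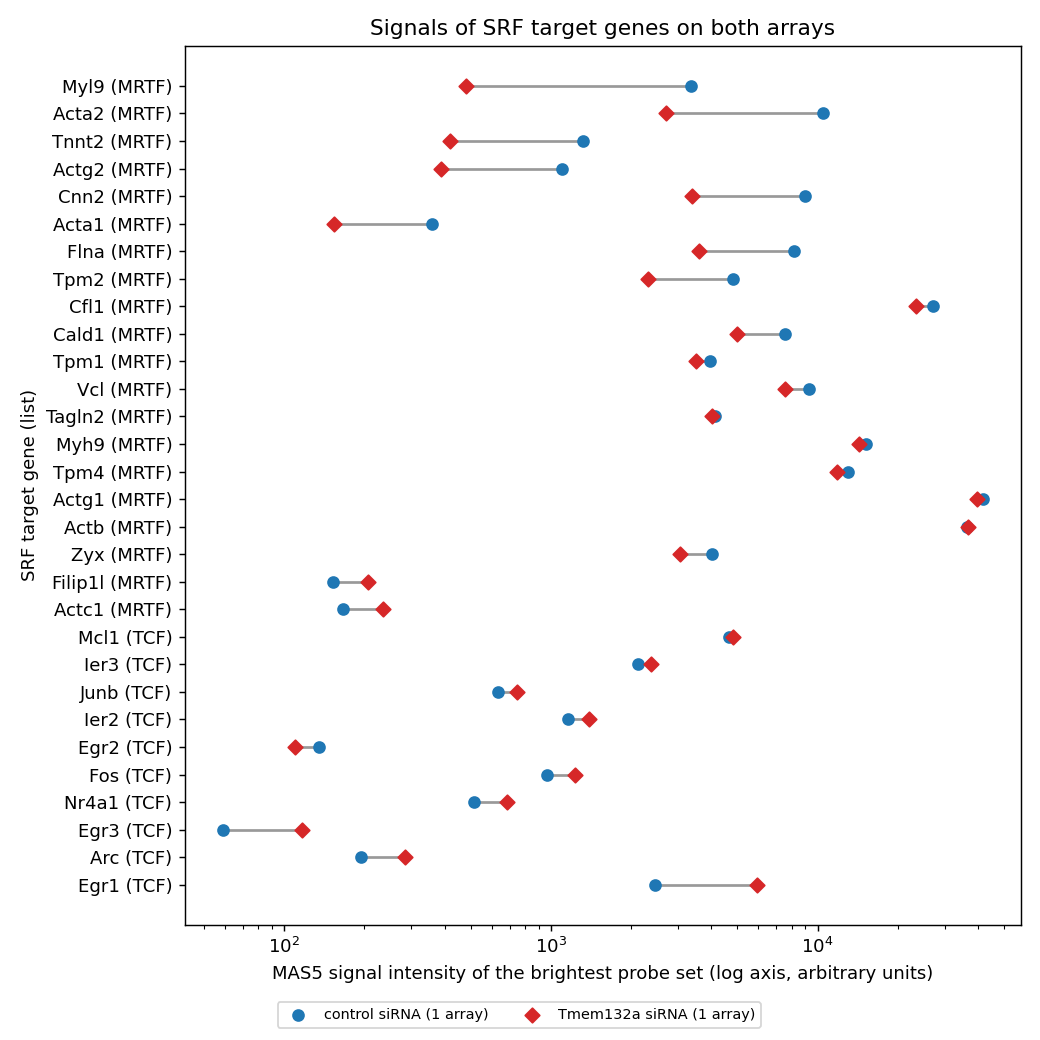
MAS5 signal (log axis) of the brightest probe set of each measured SRF target on the control siRNA array (circles) and the Tmem132a siRNA array (diamonds), 1 array per group, ordered by gene ratio within the cytoskeletal (MRTF) and the immediate early (TCF) list. The widest gap is that of Myl9, from 3346 to 478.9, and among the immediate early genes that of Egr1, from 2449.7 to 5918.4.

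All 12 measured sympathetic neuroblast markers were below 0, with a median of -0.28. Of all 10678 measured genes, 5147 were below 0. Past 1.5-fold there were 0 of the 12, against 8.82% of all genes higher and 9.11% lower. Among them, Mycn kept a probe set (111 and 75.8) through the control array alone, so that probe set cannot count towards a direction. With 2 arrays, a likeness to the cytoskeletal list cannot be measured. The brightest probe sets of the 14 markers with a probe set, the dim Nefl and Nefm included, summed to 51071.8 for the control and 41969.5 for the Tmem132a siRNA. Most of both sums came from Hand2 (15242 and 13190.2) and Stmn2 (16953.2 and 12985.8), so they do not weigh the markers equally. The 10 fibroblast markers, of which 0 passed the filter, had summed signals of 412.3 and 303. Epithelial and endothelial markers went the other way, with 236.6 and 375.2, as did immune markers, with 282.1 and 438.4. Most signals in these last 3 lists lie under the filter, so their sums give no direction. A signal under the filter on 1 array was also found for 3 of the 23 upstream genes, for 1 of the 12 YAP, TAZ or TEAD cofactors, for 1 of their 12 targets and for 1 of the 12 neuroblast markers, but for 0 of the 20 cytoskeletal targets. The part of any marker list in the lower cytoskeletal signals was not tested. In bulk RNA, fewer cells of a kind and less RNA per cell cannot be told apart.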

How the data were processed

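The values are deposited MAS5 signal intensity of probe sets on a linear scale, computed by the authors, per the submitters' processing notes; its version and scaling are not given in the sources used here. Both arrays had a 2% trimmed mean of 500.003. The table held 45101 probe sets, from which 64 control features of the manufacturer were removed. The platform annotation gave 1 symbol for 34945, several for 932 and did not list 9160.

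Both arrays were set to 1 trimmed mean. Probe sets with a mean signal at or above the median (77.25) were kept, 22519 in all, and signals under the 20th percentile (14.5) were set to that floor. Gene values are mean log2 ratios over kept probe sets with 1 symbol. Python 3.11.15, numpy 2.4.6 and pandas 2.3.3 were used. The procedure was tested on simulated data in which only bright genes were shifted. The noise added there was smaller than the SD of 0.39 between probe sets here, so that run does not cover the dim members. No test between the groups was made, since each is 1 array, whose number limits precision.

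The genes named were all members, Tmem132a, the genes of each list at least 2-fold apart (up to 6), or its 3 largest in size where fewer than 3 were, and a few defining targets. Members and lists were chosen with earlier results of these data known. Of 10 members, 8 matched a RefSeq promoter; Tead1 and Tead4 did not. Detection calls were not used here.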

Additional observations from a re-analysis of the deposited data

How the results depend on the processing

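Each result was recomputed with 10 alternatives: signals left as deposited, ratios centred on 0, quantile normalization, loess on signal (span 0.3), all probe sets kept, the filter raised to the 75th percentile (462.8), signals without a floor, 79.2 added to all signals, 1 probe set per gene (the brightest), and x, s and a probe sets removed. A value counted as moved when it changed by more than 0.39, the SD of probe sets around their gene's mean, and a count when it changed by more than 1.5 times. By this rule 159 recomputed values did not move and 6 did, but these are not independent checks. Both arrays already had the same trimmed mean, so signals left as deposited gave almost the same values. Leaving out the floor left the member ratios and list medians unchanged. By the brightest probe set, 1 member, Srf (-1.09), was 2-fold lower in place of 0. With x, s and a probe sets removed Srf had a ratio of 0.05 and Wwtr1 one of -0.21. In that setting 13 in place of 20 cytoskeletal SRF targets were measured, and 3 in place of 8 were 2-fold lower. Acta1, Acta2, Actg2 and Tnnt2 had no probe set left past the filter, and Tpm2 had a ratio of -0.89. With the stricter filter the median of the YAP, TAZ and TEAD targets was -0.56 over 4 genes. The causes were not tested, apart from the fewer probe sets left. The median of the members ran from -0.16 to 0.05, so its sign is not settled. No paired analysis was possible because each group holds 1 array.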
